A study of Mus musculus with 10 samples.

Results

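The nuclear-encoded genes of the mitochondrial respiratory chain were followed in the optic nerve head of the mouse, the place at which axons of retinal ganglion cells exit the eye. Members were all genes with a probe set of their own whose symbol starts with Nduf, Uqcr, Atp5, or Cox and a digit from 4 to 8, and each gene was read from its brightest probe set. This gave 80 of the 12393 genes measured, of which 39 carry complex I names, 8 complex III names, 16 complex IV names and 17 complex V names. The animals were C57Bl/6 males of 6 to 8 weeks. In the elevated pressure group the right eye was cannulated in the anterior chamber and held at 30 mmHg for 1 hour, with collection 3 days afterwards. The control group was the contralateral left eye, without surgery, so eye side, cannulation and pressure cannot be told apart. Each of the 10 arrays carried RNA from a pool of 2 nerve heads, 5 arrays in each group. Pools are labelled as biological replicates, but the labels do not say whether pools with the same number share mice. The p-values measure the spread between these pools, which limma draws toward a variance shared by all genes.

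The respiratory chain moves electrons from NADH to oxygen through complexes I, III and IV and pumps protons across the inner mitochondrial membrane, and complex V, the ATP synthase, lets the protons back and makes ATP. Most subunits are encoded in the nucleus and a few in mitochondrial DNA, so both genomes supply each of these complexes. In the nerve head the axons are unmyelinated and rich in mitochondria, and inherited defects of complex I are a known cause of optic nerve disease. Several cytochrome oxidase subunits exist as a widely expressed isoform and as an isoform found mainly in muscle, testis or lung. The transcription factors NRF1 and GABPA, the latter of the ETS family, are known regulators of many of these genes.

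Promoters of the members were looked up in RefSeq (GRCm38.p6), from 250 bases before to 50 after the annotated start, and 67 of the 80 genes were found. The NRF1 core GCATGCGC, read on both strands, was present in 10 of these 67 genes (14.9%), against 5.01% of 9882 measured genes with a promoter. The ETS core CCGGAAG, also read on both strands, was present in 16 of 67 (23.9%), against 16.4%. The NRF1 core was found in 2 of 5 promoters of complex III, 3 of 15 of complex V, 4 of 36 of complex I and 1 of 11 of complex IV. The ETS core was found in 2 of 5, 6 of 15, 5 of 36 and 3 of 11 of them. A match describes the letters and not a bound site. The 120 bases just before the start are shown, 5′ to 3′ along the gene, for the member of each complex with the narrowest and the one with the widest range over the 10 arrays, among those with a promoter, because how little or how much these genes varied is the main measurement here. Capitals mark the NRF1 and ETS cores.
Ndufa12 (narrowest of complex I, chr10:94198915-94199034, plus strand): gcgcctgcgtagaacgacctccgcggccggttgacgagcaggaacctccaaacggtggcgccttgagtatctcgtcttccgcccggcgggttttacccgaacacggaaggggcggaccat
Ndufa4 (widest of complex I, chr6:11907451-11907570, minus strand): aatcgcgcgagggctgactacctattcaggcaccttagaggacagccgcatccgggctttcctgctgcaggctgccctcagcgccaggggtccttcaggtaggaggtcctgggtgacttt
Uqcrh (narrowest of complex III, chr4:116075071-116075190, minus strand): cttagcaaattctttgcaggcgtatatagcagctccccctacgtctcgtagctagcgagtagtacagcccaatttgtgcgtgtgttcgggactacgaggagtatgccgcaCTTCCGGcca
Uqcrc1 (widest of complex III, chr9:108936528-108936647, plus strand): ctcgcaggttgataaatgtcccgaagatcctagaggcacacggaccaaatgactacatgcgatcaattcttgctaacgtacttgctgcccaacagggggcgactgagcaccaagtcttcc
Cox5b (narrowest of complex IV, chr1:36691367-36691486, plus strand): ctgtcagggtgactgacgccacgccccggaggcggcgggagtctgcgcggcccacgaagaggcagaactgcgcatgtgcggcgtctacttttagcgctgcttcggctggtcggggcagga
Cox8b (widest of complex IV, chr7:140900447-140900566, minus strand): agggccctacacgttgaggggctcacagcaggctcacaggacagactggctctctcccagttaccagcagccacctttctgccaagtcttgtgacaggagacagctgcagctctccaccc
Atp5h (narrowest of complex V, chr11:115419920-115420039, minus strand): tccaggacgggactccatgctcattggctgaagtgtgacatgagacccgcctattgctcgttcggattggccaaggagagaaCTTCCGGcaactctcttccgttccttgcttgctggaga
Atp5g2 (widest of complex V, chr15:102671048-102671167, minus strand): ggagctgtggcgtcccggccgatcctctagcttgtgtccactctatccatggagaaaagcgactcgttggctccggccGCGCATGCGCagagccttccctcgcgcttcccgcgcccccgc
In Atp5g2 the core was read on both strands of a palindrome, so its 2 matches overlap, and Uqcrc1 held its 2 matches outside the stretch shown.

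The arrays held markers of nerve and of neighbouring eye tissue, and 1 array stood apart. Gfap, the astrocyte filament gene, had signals of 10644 to 12631 over the 10 arrays, and Mbp, a gene of the myelin that begins behind the unmyelinated stretch, signals of 13490.3 to 15433. Marker genes of photoreceptors, cells of the neighbouring retina that are rich in mitochondria, spanned 4.87-fold between arrays in their mean log2 deviation (15 of 16 on the list measured), from -1.07 to 1.21 in control and from -0.58 to 1.15 after elevated pressure. Markers of pigmented cells and the retinal pigment epithelium (11 of 13 measured) spanned 3.44-fold, from -0.67 to 1.11 in control and from -0.38 to 0.63 after elevated pressure, and the pigment gene Dct had signals of 2700.2 to 8944. The array medians ran from 414 to 475. Elevated pressure replicate 1 had a mean correlation of 0.974 with the other arrays against at least 0.986 for each of the rest, and a Gapdh signal 2.07 times as high at the 3′ as at the 5′ control probe set, where the other arrays had 1.53 to 1.73 times. The actin control gave a ratio of 2.10 on that array and its highest, 2.13, on elevated pressure replicate 4, against 1.65 to 1.94 elsewhere. The score of oligodendrocyte markers (9 of 12 measured) was lowest on elevated pressure replicate 1, at -0.94. The rest of its group ran from -0.20 to 0.14 and control from -0.16 to 0.44. In pooled tissue, fewer cells of a type and less RNA per cell cannot be told apart.

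The comparison asks whether transcripts of the energy-producing machinery differed in the nerve head 3 days after the rise of pressure. Of the 80 respiratory chain genes 40 had a log2 fold change above 0 and 40 below 0, with a median of -0.00064, against a median of -0.0094 over all genes and 47.3% of them above 0. With limma, 0 of 80 passed an adjusted p under 0.05, where 0% of all genes did. An unadjusted limma p under 0.05 was found for 0 of 80, against 3.97% of all genes (2.65% higher and 1.32% lower). These shares are not on an equal footing, since limma's shared variance made a small p harder to reach for members of small spread. Cox5b, with an SD within groups of 0.0341, had a standard error of 0.0619. With a prior variance that follows the signal, 1 of 80 members and 446 of all genes had an unadjusted limma p under 0.05. The groups overlapped in each of the 80 genes, while 0.629% of all genes had groups that did not overlap (0.403% above and 0.226% below control). The fold changes ran from -0.28 for Ndufa4 to 0.17 for Cox6a2, and the lowest unadjusted p was 0.136, for Cox7a2l (limma adjusted p = 0.849). The values are differences of log2(signal + 16), elevated pressure minus control, and understate changes of dim genes.

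Most intervals were narrow. The 95% interval of the fold change lay within 1.25-fold in both directions for 70 of 80 members, where 31.5% of all genes had such an interval, and within 1.5-fold for 77 of 80, where 76.8% did. The median SD between arrays of one group was 0.0748 on the log2 scale for the members and 0.214 for all genes. From the lowest to the highest of the 10 arrays the signal of the median member spanned 1.18-fold and that of the median gene 1.75-fold. In 60 of 80 members the span was under 1.25-fold. The members were also bright, with a median signal of 5797 over the members and 721 over all genes, and the part of brightness in the narrower spread was not tested. Among other bright lists, the median SD was 0.0875 for mitochondrial carriers and channels (median signal 4035) and 0.103 for astrocyte markers (7847). It was 0.130 for fibroblast markers (7952) and 0.335 for oligodendrocyte markers (5655). The 10 members with wider intervals were Ndufa4, Ndufa8, Ndufb1, Uqcrc1, Cox7c, Cox4i2, Cox6a2, Cox7a1, Cox8b and Cox8c.

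**Figure D1:**
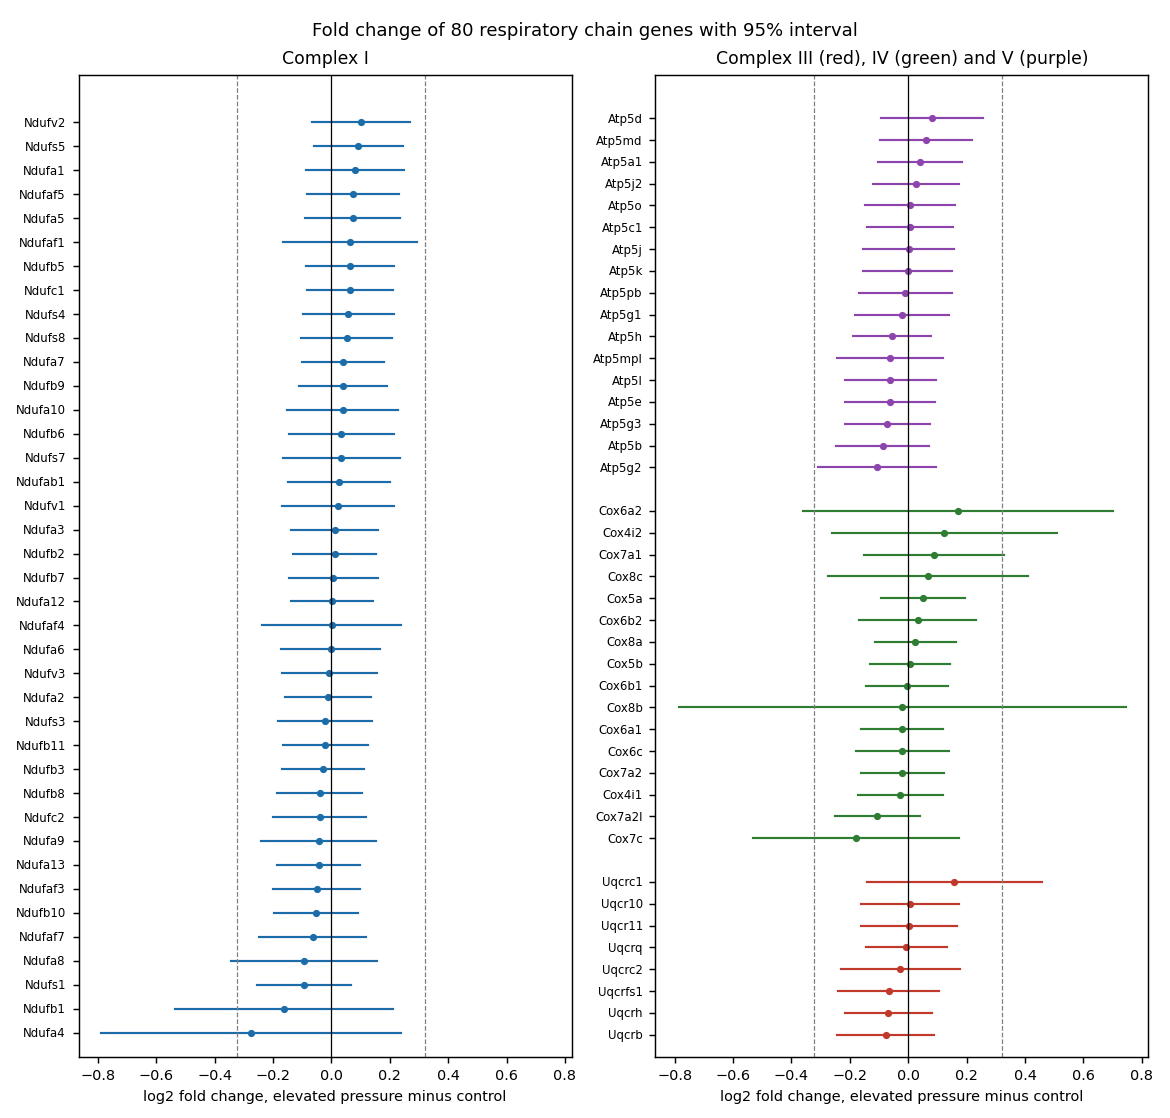
Log2 fold change (elevated pressure minus control, x axis) of each of the 80 genes, with its 95% limma interval as a line, ordered by size within a complex. Dashed lines mark 1.25-fold in each direction. All 80 intervals include 0, and 10 cross a dashed line, most of them in complex IV.

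Complex I, the entry point for electrons from NADH, had 22 genes above and 17 below 0, with a median log2 fold change of 0.01. The 6 measured core subunits, among them those of the flavin and iron-sulphur centres, ran from -0.09 to 0.10. Ndufv2, a core iron-sulphur subunit, had signals of 4682, 4658, 4974, 5214 and 4789 in control replicates 1 to 5 and 5539.8, 5120.0, 4653, 5323 and 5503 in elevated pressure replicates 1 to 5. It had the highest fold change of the complex, 0.10 (95% interval -0.06 to 0.27), with 3 elevated pressure arrays above every control array and 1 below all of them, and its other probe sets stood at 0.17 and 0.18. Ndufs1, the largest core subunit, had signals of 2899.6, 2624, 2880.2, 2861 and 2774 in control and 2388, 2819, 2542, 2670.1 and 2737 after elevated pressure. It stood at -0.09 (interval -0.26 to 0.07), and the groups overlapped. Ndufv1, the flavin subunit, stood at 0.02 (interval -0.17 to 0.21).

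Supernumerary subunits of complex I surround the core. The 28 genes counted as such, with Ndufa4 among them by its name, had a median log2 fold change of 0.00. Of these 28, 15 were above and 13 below 0. Ndufs5, one of them, had signals of 4206, 4281, 4369.8, 4346 and 4026 in control and 4484, 4349, 4293, 4612 and 4923 after elevated pressure, so the log2 fold change was 0.09 (interval -0.06 to 0.24). Of its 5 elevated pressure arrays 3 lay above every control array. The 5 measured assembly factors, which help build the complex and leave it, ran from -0.06 to 0.07. Ndufa12, chosen here for its narrow range, spanned 1.09-fold over the 10 arrays and stood at 0.00 (interval -0.14 to 0.14).

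Ndufa4 had the lowest fold change of the 80 genes, and 1 array set it. The gene is named for complex I, and its protein is now known as a subunit of cytochrome oxidase. Its signals were 6385, 5939, 6287, 6435 and 5852 in control and 2523, 5205, 6616, 6428 and 6159 after elevated pressure. Elevated pressure replicate 1 was far below every other array, and the other 4 lay between 5205 and 6616, around the control range. The log2 fold change was -0.28 (interval -0.79 to 0.24) with all arrays and -0.02 without elevated pressure replicate 1, and the gene has no other probe set here. Ndufa8, a supernumerary subunit named here after its values were seen, was at 3066 on the same array and at 4113 to 4618 on the other 4 of its group, against 4115 to 4689.7 in control. Its log2 fold change was -0.09, and 0.01 without that array. That array had the highest Gapdh 3′ to 5′ ratio and the lowest oligodendrocyte score, while the actin ratio was highest on elevated pressure replicate 4. The part of RNA quality or tissue content in these values was not tested. Ndufb1 was dim, with signals from 55.1 to 118, and its fold change of -0.16 had an interval from -0.54 to 0.21.

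Complex III passes electrons from ubiquinol to cytochrome c. Of its 8 genes 3 were above and 5 below 0, with a median log2 fold change of -0.02. Uqcrc1, a core protein on the matrix side, had signals of 2505, 2643, 2609.8, 3135 and 2455 in control and 4055, 2979.9, 2400.4, 2613 and 3039.8 after elevated pressure. Its highest array was elevated pressure replicate 1, where Ndufa4 was lowest, and the other 4 arrays of the group lay within the control range or below it. The log2 fold change was 0.16 (interval -0.14 to 0.46), and 0.05 without that array. Uqcrfs1, the Rieske iron-sulphur protein, had signals of 2880.1, 2589.8, 2857, 2618 and 2665 in control and 2461, 2769, 2358, 2581 and 2846 after elevated pressure, with a log2 fold change of -0.07 (interval -0.24 to 0.11). The small subunits Uqcrb and Uqcrh stood at -0.08 and -0.07, with intervals from -0.24 to 0.09 and from -0.22 to 0.08. The 5 small subunits together ran from -0.08 to 0.01, and the 8 genes of the complex were lowest, on average, on elevated pressure replicate 3.

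**Figure D2:**
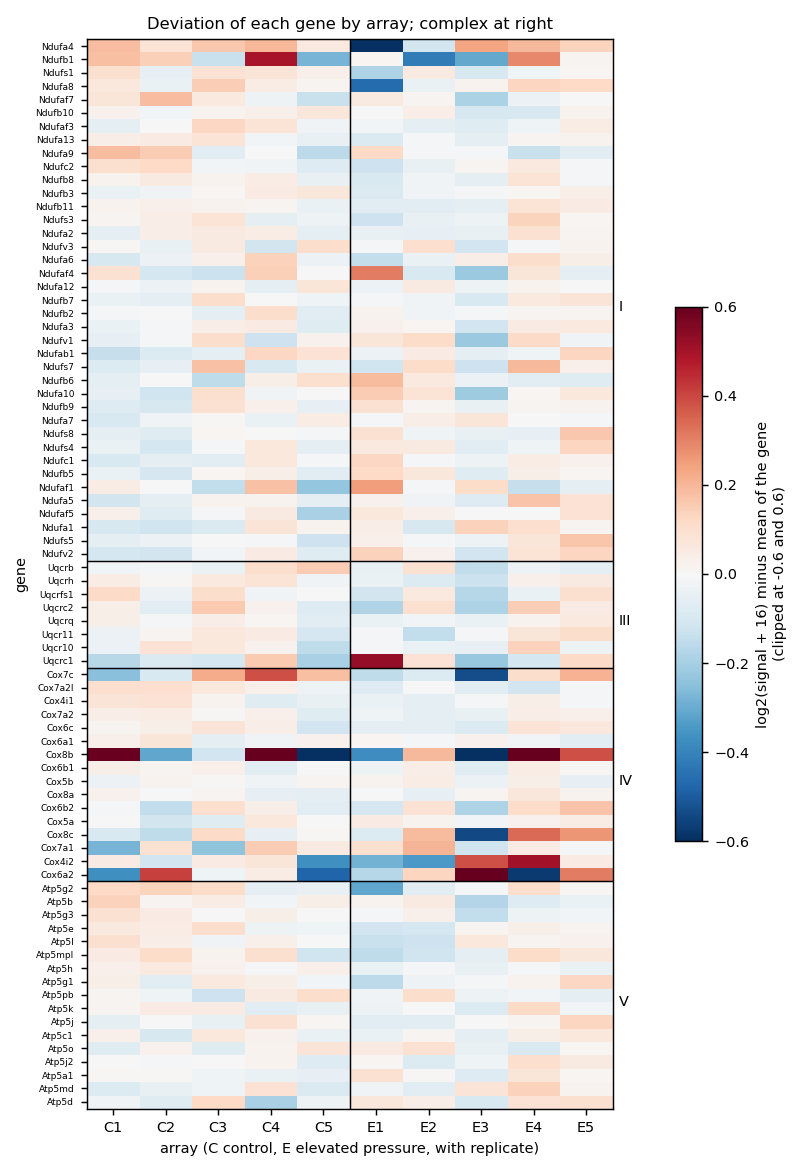
Log2(signal + 16) of each gene on each array minus the mean of that gene over 10 arrays, by complex, with colours clipped at -0.6 and 0.6. Most cells are pale. The strong colours lie in Ndufa4, Ndufa8 and Uqcrc1 on elevated pressure replicate 1, in Ndufb1, and in Cox7c, Cox8b, Cox8c, Cox4i2 and Cox6a2 of complex IV.

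Complex IV, cytochrome oxidase, hands electrons to oxygen, and its genes included those with the narrowest and the widest range of the 80. Of the 16 genes 8 were above and 8 below 0, with a median log2 fold change of 0.00075. Cox5b, a subunit common to all tissues, spanned 1.07-fold over the 10 arrays, from 8379.5 to 8927, the narrowest range of the 80 genes. Its log2 fold change was 0.01 (interval -0.13 to 0.14), with the opposite sign, -0.14 to -0.02, in its other 5 probe sets. Cox5a, its partner subunit, had signals of 6333, 5879.7, 6026, 6620.0 and 6319 in control and 6548, 6439, 6258, 6456 and 6541 after elevated pressure, with a log2 fold change of 0.05 (interval -0.09 to 0.19).

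Cox7a2l had the smallest p of all 80 genes. Its signals were 7796, 7810.4, 7613, 7426 and 7117 in control and 6893, 7284, 6973, 6719 and 7220.4 after elevated pressure. Of the elevated pressure arrays 3 lay below every control array and 2 above control replicate 5. The log2 fold change was -0.11 (interval -0.25 to 0.04, limma adjusted p = 0.849), its other probe sets stood at -0.12 and -0.07, and it stayed between -0.13 and -0.09 with each array left out in turn. With a prior variance that follows the signal the unadjusted limma p was 0.0343, which did not pass over all genes (adjusted p = 0.835). Cox7c, a small subunit, was read from a dim probe set with signals from 78.4 to 162 and had the lowest fold change of the complex, -0.18 (interval -0.53 to 0.17).

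In complex IV the widely expressed and the restricted isoforms had different spreads, with no test of the difference. The 6 measured widely expressed isoforms, Ndufa4 counted with them, had a median SD within groups of 0.0457 on the log2 scale, and the 6 measured isoforms restricted to certain tissues one of 0.282. Among the wide isoforms Cox4i1 stood at -0.03, Cox6a1 at -0.02, Cox7a2 at -0.02 and Cox8a at 0.02, each with an interval within 1.25-fold, and each spanned 1.08-fold to 1.12-fold over the arrays. The restricted isoforms were dimmer, with a median signal of 594 against 9570.3, and the part of low signal in their spread was not tested.

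**Figure D3:**
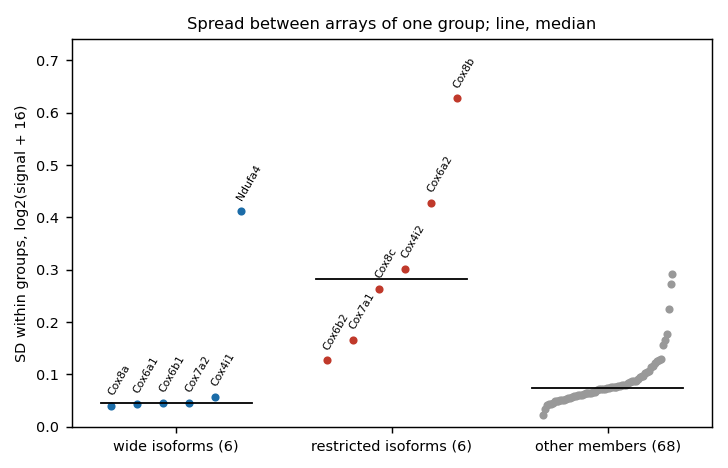
SD between arrays of one group on the log2(signal + 16) scale (y axis) for each member, with 6 widely expressed isoforms, 6 restricted isoforms and the other 68 members; the line is the median. Of the wide isoforms Ndufa4 alone lies above 0.1, while all 6 restricted isoforms do.

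Cox8b, the heart and skeletal muscle isoform of subunit 8, had the widest range of the 80 genes, 3.20-fold. Its signals were 539, 281, 324, 575 and 196 in control and 269, 406, 179.6, 562 and 466 after elevated pressure, so both groups covered nearly the same range. Its log2 fold change was -0.02 with an interval from -0.79 to 0.75, which leaves room for a change of over 1.5-fold in either direction. With an array left out it ran from -0.22 (without control replicate 5) to 0.21 (without elevated pressure replicate 3). The score of 18 skeletal muscle markers spanned 1.16-fold. It ran from -0.10 in control replicates 1 and 5 to 0.11 in elevated pressure replicates 1 and 4. These markers had a median signal of 51, and the scale understates changes of dim genes. The photoreceptor score was 1.21 in control replicate 4 and 1.15 in elevated pressure replicate 4, the arrays with the highest Cox8b signals, and -0.03 in control replicate 1, where Cox8b was at 539. Its part in the Cox8b values was not tested.

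Cox6a2, the muscle isoform of subunit 6a, had signals of 134, 242, 175, 184 and 123 in control and 156, 196, 306, 115 and 224 after elevated pressure. The highest and the lowest array were both of the elevated pressure group, and the log2 fold change of 0.17 had an interval from -0.36 to 0.70. It stood at 0.01 without elevated pressure replicate 3 and at 0.33 without 4. Cox7a1, the muscle and brown fat isoform of subunit 7a, had signals of 1608, 2088, 1651, 2176 and 2033 in control and 2094, 2256, 1799, 2025 and 1944 after elevated pressure. Only elevated pressure replicate 2 lay above every control array, the other 4 lay within the control range, and the log2 fold change was 0.09 (interval -0.15 to 0.33).

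Cox4i2, an isoform of subunit 4 known from lung and from pericytes of vessel walls, had signals of 821, 729, 821, 834 and 610.0 in control and 647, 620.3, 1041, 1129.8 and 819 after elevated pressure. Elevated pressure replicates 3 and 4 lay above every control array, and replicates 1 and 2 below all controls but replicate 5. The log2 fold change was 0.12 (interval -0.26 to 0.51), 0.01 without elevated pressure replicate 4 and 0.23 without 2. The score of 10 mural cell markers was 0.21 and 0.09 in elevated pressure replicates 3 and 4 and 0.23 and -0.37 in replicates 1 and 2, and its part in these values was not tested. Of the isoforms known mainly from testis, Cox6b2 stood at 0.03 (interval -0.17 to 0.23) with signals from 2097 to 2690.0, and Cox8c at 0.07 (interval -0.27 to 0.41) with signals from 29.9 to 68.5.

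**Figure D4:**
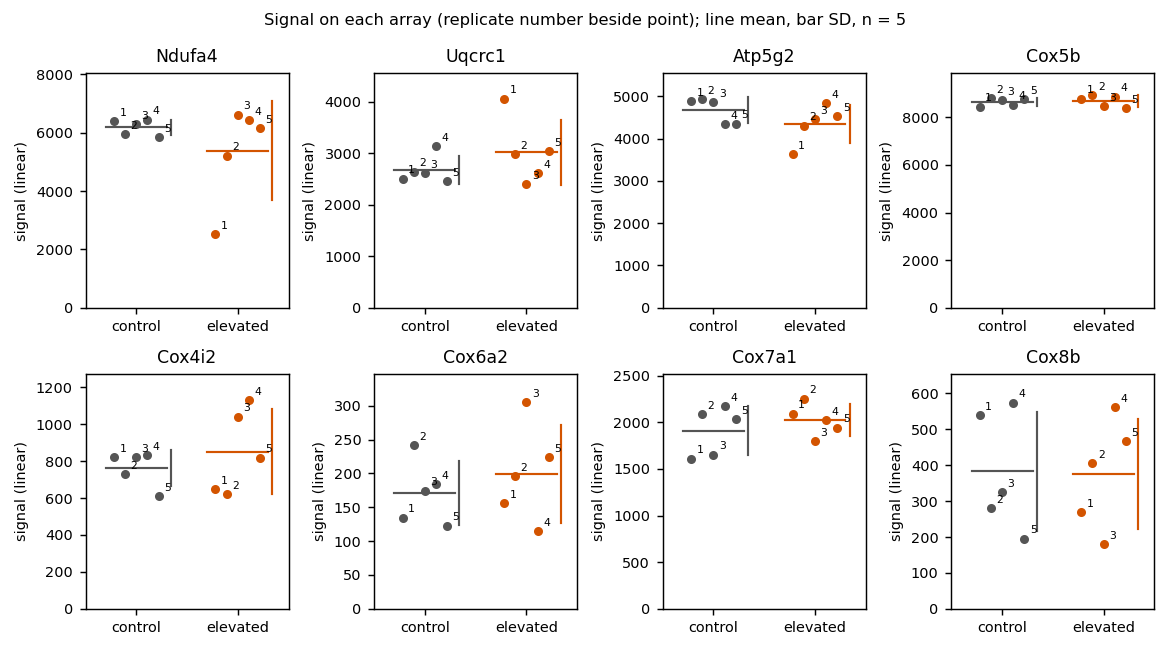
Linear signal on each array for 8 genes, with replicate numbers beside the points, the mean as a horizontal line and the SD as a vertical bar (n = 5 in each group). Ndufa4 at 2523 and Uqcrc1 at 4055 on elevated pressure replicate 1 lie apart from the rest, Cox5b is flat, and Cox8b spreads from 179.6 to 575 over both groups.

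In complex V, the ATP synthase, all 17 intervals lay within 1.25-fold. Of its genes 7 were above and 10 below 0, with a median log2 fold change of -0.01, and the fold changes ran from -0.11 to 0.08. In the catalytic F1 head, Atp5a1, the alpha subunit, averaged 10245 ± 188 in control and 10542 ± 476 after elevated pressure (SD, n = 5 each), which is 0.04 on the log2 scale (interval -0.10 to 0.18), and its other probe sets stood at -0.11 and 0.02. Atp5b, the beta subunit that holds the catalytic site, had signals of 9386, 8629, 8801, 8422 and 8726 in control and 8656, 8849, 7533, 8067 and 8301 after elevated pressure. Of the elevated pressure arrays 3 lay below every control array, and the log2 fold change was -0.09 (interval -0.25 to 0.07). Atp5d, the delta subunit of the central stalk, had the highest fold change, 0.08 (interval -0.09 to 0.25), and its other probe set stood at -0.02.

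The membrane ring of complex V is built of c subunits, which 3 genes encode. Atp5g1 stood at -0.02 (interval -0.18 to 0.14), Atp5g2 at -0.11 (interval -0.31 to 0.09) and Atp5g3 at -0.07 (interval -0.22 to 0.07). Atp5g2 had signals of 4886, 4929, 4853, 4334 and 4354 in control and 3622, 4304, 4451, 4833 and 4531 after elevated pressure, with elevated pressure replicate 1 again the lowest. Without that array it stood at -0.04, and its other probe set was at 0.01. Atp5g3 had signals of 9822, 9536, 9244, 9460.5 and 9240.1 in control and 9139, 9422, 8331, 9046 and 9110.5 after elevated pressure, where 4 arrays lay below every control array. The other 9 genes of the complex, outside the F1 head and the ring, ran from -0.06 to 0.06. Among them Atp5h, a subunit of the side stalk chosen here for its narrow range, had signals of 11105, 11329, 11065, 10799 and 11097 in control and 10566, 10815, 10550.0, 10797 and 10566 after elevated pressure. Its elevated pressure arrays lay below the controls but for replicate 2, which was above control replicate 4, and the log2 fold change was -0.06 (interval -0.19 to 0.08, limma adjusted p = 0.854), while its other probe set stood at 0.02.

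The arrays differed in the level of the members as a whole. The mean log2 deviation of the 80 genes ran from -0.07 in elevated pressure replicate 3 to 0.05 in elevated pressure replicates 4 and 5, a 1.08-fold span, with -0.05 to 0.04 in control. The score of complex III was -0.12 in elevated pressure replicate 3, against 0.01 to 0.05 in the rest of its group. Of the 80 genes 26 had their lowest value on elevated pressure replicate 3 and 14 on elevated pressure replicate 1. Both the range and the order depended on the scaling between arrays. With equal array medians the mean deviation ran from -0.13 in elevated pressure replicate 3 to 0.10 in elevated pressure replicate 1, which stood at -0.03 as deposited, and after quantile normalization it was lowest in control replicate 1, at -0.07, and highest in control replicate 4, at 0.07. With equal medians 43 genes were lowest on elevated pressure replicate 3 and 46 highest on elevated pressure replicate 1, and with quantile normalization 28 were lowest on control replicate 1 and 21 on elevated pressure replicate 3.

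**Figure D5:**
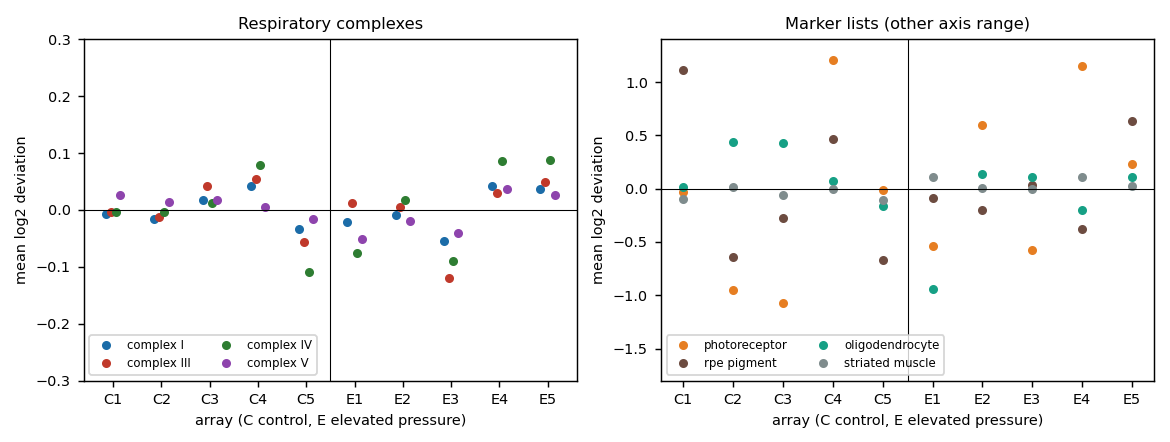
Mean log2 deviation on each array of the genes of complexes I, III, IV and V (left) and of 4 marker lists (right, with a wider axis). The complexes stay between -0.12 and 0.09 on all arrays, while the photoreceptor score runs from -1.07 to 1.21.

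Members varied together only in part. As a description over the 10 arrays, which share scaling and tissue content, the median correlation between pairs of members, taken on deviations from the group means, was 0.171 over 3160 pairs, and 0.0174 was the value over all genes. With equal array medians the members' value was 0.473 and with quantile normalization 0.280, while that of all genes was 0.0245 and 0.0067. Within complexes the value was 0.165 for complex I, 0.256 for III, 0.0698 for IV and 0.172 for V.

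Other probe sets went with the brightest only in part. For 42 of the 80 genes there were 69 further probe sets, with a median log2 fold change of 0.02, and 20 of them, in 13 genes, had the sign opposite to that of the brightest. They ran from -0.31 for Atp5c1, a stalk subunit whose brightest probe set stood at 0.01, to 0.50 for Uqcrq, a small complex III subunit whose brightest stood at -0.01. Ndufb9, Uqcr10 and Ndufab1 each had a further probe set at 0.34, 0.28 and 0.24, where the brightest stood at 0.04, 0.01 and 0.03.

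The neighbouring parts of mitochondrial metabolism were read from lists chosen with earlier results of these data known. With limma 0 of their genes passed an adjusted p under 0.05, as over all genes, and 0 had an unadjusted p under 0.05. Complex II, succinate dehydrogenase, had 4 of 7 measured genes above 0 and a median of 0.00. Its membrane subunit gene Sdhc averaged 2738 ± 184 in control and 2333 ± 398 after elevated pressure (SD, n = 5 each), or -0.25 on the log2 scale, and -0.12 without elevated pressure replicate 1. Of cytochrome c, cytochrome c1 and their like, 1 of 4 was above 0, with Cyc1, the cytochrome c1 gene of complex III, at 0.12. Assembly factors outside the members had 15 of 26 genes above 0 and a median of 0.01, with Uqcc2 at 0.12.

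Regulators of mitochondrial transcription and biogenesis had 13 of 21 genes above 0 and a median log2 fold change of 0.06, with Polrmt, the mitochondrial RNA polymerase, at 0.26. Genes of the citric acid cycle had 7 of 16 above 0 and a median of -0.01, with Pdha1, a subunit of pyruvate dehydrogenase, at -0.08. Carriers and channels of the mitochondrial membranes had 4 of 14 above 0 and a median of -0.06, with Slc25a4, which exchanges ATP for ADP, at -0.10. Antioxidant genes had 3 of 7 above 0, with Txnrd2, the mitochondrial thioredoxin reductase, at 0.29. Genes of cristae and supercomplex shape had 3 of 11 above 0 and a median of -0.02, with Apool at -0.15. The mitochondrial genome was measured by a single gene, ND5, a complex I subunit, which averaged 11160.4 ± 829 in control and 11112 ± 594 after elevated pressure (SD, n = 5 each).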

How the data were processed

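Values were the deposited linear intensity of 22690 probe sets on 10 arrays. Per the labels' protocols, 30 ng of total RNA with an integrity number above 9.1 was amplified and biotin-labelled. How the authors summarised, background-corrected and normalized them is not stated in the labels read here, and array medians were unequal. The number of arrays limits the precision. Control probe sets (64) were left out, and of the other 22626, 20380 had 1 gene symbol in the platform annotation, 691 several and 1555 none. Of the 20380, 20351 had an Entrez identifier in the RefSeq table. Probe sets naming several genes, 8 of them with a member's symbol, were not used. Each gene was read from its brightest probe set by mean log2(signal + 16), giving 12393 genes.

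Groups were compared with limma 3.58.1 (lmFit, eBayes, R 4.3.3) on log2(signal + 16), 5 against 5 arrays without covariates, with Benjamini-Hochberg adjustment over all genes. The test was checked on simulated data. A list's score is its mean log2 deviation from each gene's mean. The members and lists were chosen with earlier results of these data known. Named genes were, per complex, the 3 with the smallest p, the highest, the lowest and the widest-ranging, a fixed set of core and isoform genes, and the smallest p of a pathway list. A further 7 members were singled out after their values were seen. Alternatives were other normalizations, pseudocount 1, probe set means, a filter on the dimmest 25%, another variance prior, replicate blocks, marker covariates and each array left out. Python 3.11.15, pandas 2.3.3, NumPy 2.4.6 and Matplotlib 3.10.9 were used.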

Additional observations from a re-analysis of the deposited data

Results flagged for a closer look

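In groups of 5 arrays, the outermost array was compared with the range of its group by Dixon's ratio, for which chance alone passes about 5% of groups. Of 94 groups tested 3 passed the critical value of 0.71. Sdhc, which encodes a membrane anchor of complex II, was at 1626 on elevated pressure replicate 1, far below the 2459.6 to 2579 of the rest of its group. Uqcrc1, a core subunit of complex III, was at 3135 on control replicate 4, above the 2455 to 2643 of the other controls. The score of complex III was -0.12 on elevated pressure replicate 3, below the 0.01 to 0.05 of the rest of its group.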

How the results depend on the processing

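No member passed the limma test in the 20 alternatives, where the lowest adjusted p of a member was 0.561. With limma, 1 member was at an unadjusted p under 0.05 with the trended, robust prior (Cox7a2l), and 1 with the striated muscle score as a covariate (Ndufb1, log2 fold change -0.54, adjusted p = 1.00). Over all genes, 368 (without control replicate 2) to 1044 (without elevated pressure replicate 3) reached that p with an array left out, against 492, and the cause was not tested. After quantile normalization the median log2 fold change was 0.033 over all members, against -0.00064 as deposited. For complexes I, III, IV and V it was then 0.039, 0.025, 0.036 and 0.024. With equal array medians it was 0.027 over all members and 0.034, 0.010, 0.028 and 0.018 for the complexes. The medians thus depended on the scaling between arrays, and the cause was not tested. The count of members within 1.25-fold ran from 58 (striated muscle covariate) to 73 (without elevated pressure replicate 1).

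Of 42 named genes 24 kept their sign throughout. Quantile normalization gave log2 fold changes of 0.022 for Atp5g1, 0.0017 for Cox4i1, 0.0071 for Cox6a1, 0.014 for Cox7a2, 0.010 for Cox8b and 0.034 for ND5. Equal array medians gave 0.0063, 0.00063, 0.0074, 0.0068, 0.0068 and 0.023 for the same genes. The mean over probe sets gave -0.017 for Atp5a1, -0.053 for Cox5b and -0.014 for Cox8a, and the photoreceptor covariate -0.00032 for Ndufa12. The striated muscle covariate gave 0.056 for Apool, -0.015 for Atp5a1, 0.036 for Atp5g1, -0.017 for Cox5b, -0.046 for Cox7a1, 0.024 for Ndufa8, -0.022 for Ndufv1, -0.054 for Uqcrc1 and 0.0017 for Uqcrfs1. With an array left out, Atp5g1 ran from -0.054 to 0.016, Cox5b from -0.0045 to 0.018, Cox6b2 from -0.0063 to 0.083, Cox8b from -0.22 to 0.21, Cox8c from -0.0078 to 0.21, ND5 from -0.048 to 0.026, Ndufa12 from -0.011 to 0.020, Ndufa8 from -0.14 to 0.010 and Ndufv1 from -0.0066 to 0.080. The cause was not tested.

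Same-numbered arrays of the groups correlated from -0.08 to 0.21 in their deviations, over 0.1 in 2 of 5 pairs. Such values cannot decide whether these pools share mice, since arrays also differ in tissue content. As the labels do not say so, the main fit took no pairing. In 2 of 5 control arrays the best match was the own number. With the replicate block 0 genes passed over all genes and 451 were at an unadjusted p under 0.05, with 0 members among them and 67 members within 1.25-fold.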
